A study of Mus musculus with 96 samples.

Results

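The libraries described here come from the prefrontal cortex (PFC) of gonadal females with 2 X chromosomes, 6 from mice that went through stress and 5 from unstressed controls. They were chosen by their titles and labels (region PFC, genotype XX without the Sry transgene) and make up 11 of the 96 libraries of the series and 11 of its 48 PFC libraries. The mice belong to the 4 core genotypes (FCG) model, in which the testis-determining gene Sry is lost from the Y chromosome (Y-) and carried instead as an autosomal transgene. XX and XY- mice therefore have ovaries, and XXSry and XY-Sry mice have testes. The XX mice carry neither a Y chromosome nor the transgene, in the control and the stress group alike. Stress was a subchronic variable stress procedure of 3 restraint sessions, each lasting 1 hour, given every other day within 6 days. The controls were left unstressed. The sources used here do not give the age of the mice or the time from the last session to tissue collection. Each library is labelled as a different mouse. Control mice 2, 10 and 29 belong to cohort 1 and control mice 35 and 50 to cohort 2. Stressed mice 17 and 20 belong to cohort 1, mouse 43 to cohort 2, and mice 9, 18 and 25 to cohort 3, which holds no XX control.

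The prefrontal cortex regulates behaviour under stress and is itself a target of stress hormones. Restraint releases corticosterone from the adrenal gland, which acts in neurons and glia through the glucocorticoid receptor (Nr3c1) and the mineralocorticoid receptor (Nr3c2) to induce genes such as Fkbp5, Sgk1 and Tsc22d3. Neuronal firing induces another group, the immediate early genes, whose RNA appears within minutes and decays within hours. The comparison asks which RNAs differed between stressed and unstressed XX mice, and whether the difference was another one in the other 3 genotypes or in the nucleus accumbens (NAc) of the same animals.

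Total counts per library ran from 68.5 M to 89.5 M (M, mega), with 81.9 ± 4.60 M in the controls (SD, n = 5) and 75.6 ± 7.23 M in the stressed mice (SD, n = 6). These totals lie above the average number of reads that the protocol states, and the sources used here do not say whether both mates of a pair were counted. Markers of cortex fitted the tissue label. Slc17a7, the vesicular glutamate transporter of cortical projection neurons, stood at 1391 ± 67.6 CPM (counts scaled to the TMM-adjusted size of the library; SD, n = 11) in the PFC and at 314.0 ± 130 CPM in the NAc of the XX mice. Drd2, a dopamine receptor of striatal neurons, stood at 0.519 ± 0.180 CPM in the PFC and at 83.9 ± 14.5 CPM in the NAc. Xist, the RNA that coats the inactive X chromosome, lay between 830 and 1148 CPM in every XX PFC library, and 4 Y-linked genes together had 24 counts over all 11 libraries.

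No gene differed between stressed and control XX mice past an adjusted p of 0.05. Of 19292 genes tested with edgeR's quasi-likelihood test and Benjamini-Hochberg adjustment, 0 were called (0%) and the lowest adjusted p was 0.9997. At an unadjusted p below 0.05 stood 582 genes (3.02%), 295 of them higher and 287 lower in stress. DESeq2 and limma-voom called 0 genes as well, with 618 and 588 genes at an unadjusted p below 0.05. Log2 fold changes are stress minus control, with cohort in the model. They come from a fit over all 48 PFC libraries, in which the effect of cohort 3 is learned from the other genotypes, and can differ from the ratio of 2 plain means. RNA was taken from tissue punches, so fewer cells of a type and less RNA per cell cannot be told apart.

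The intervals show how small a difference the libraries could have held. Among the 14360 genes with a mean of at least 1 CPM, the median standard error (SE) was 0.06 on the log2 scale, and 13845 genes (96.4%) had a 95% interval that lay whole within a 1.5-fold difference in either direction. Within a 2-fold difference lay the intervals of 14268 genes (99.4%). Of the 4932 genes under 1 CPM, 586 (11.9%) had an interval within 1.5-fold and 2424 (49.1%) had one within 2-fold, so for most of these weakly expressed genes a 1.5-fold difference is not excluded. Each interval covers its own gene and is not adjusted for the number of genes.

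**Figure D1:**
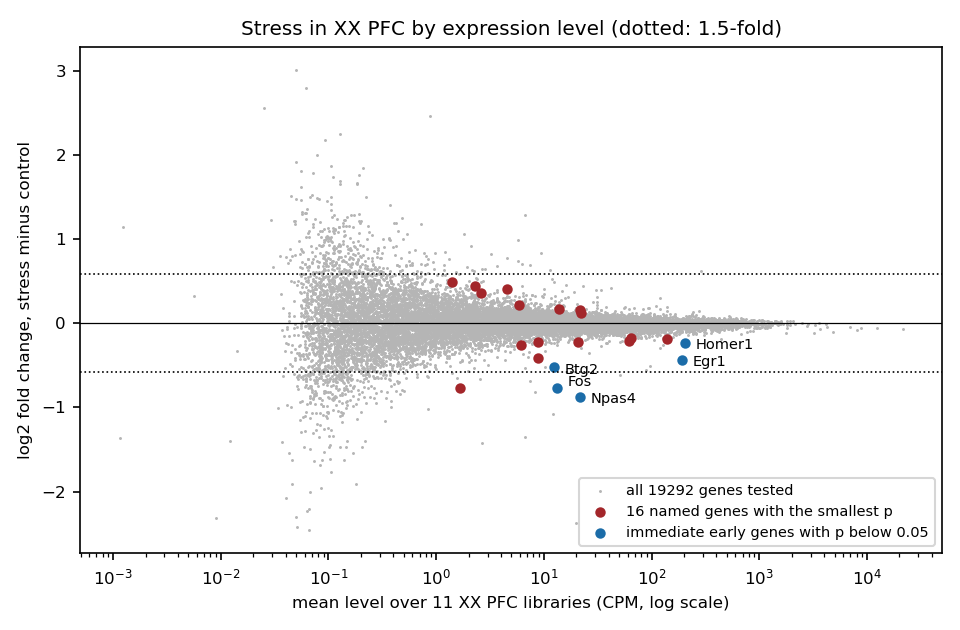
Log2 fold change of stress against control in XX PFC (vertical axis) by mean level over the 11 libraries in CPM (horizontal axis, log scale). Each grey dot is 1 of 19292 genes, and red dots are the 16 named genes with the smallest unadjusted p (mean of at least 1 CPM, no Gm or Rik names). Blue dots are the 5 immediate early genes with an unadjusted p below 0.05, and dotted lines mark a 1.5-fold difference. Above 1 CPM nearly all genes lie between the dotted lines, and below it the spread widens.

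Since no gene passed, what follows are the values of those with the lowest p, 8 in each direction. They were taken among genes with a mean of at least 1 CPM and no Gm or Rik name. The lowest p of all genes tested belonged to Six4 (chr12:73099609-73113456, minus strand), a homeobox transcription factor of muscle and sensory organ development. Its level was 3.27, 1.53, 2.00, 2.21 and 1.77 CPM in control mice 2, 10, 29, 35 and 50. It was 1.43, 1.36, 1.20, 1.38, 1.24 and 0.784 CPM in stressed mice 17, 20, 43, 9, 18 and 25. Every stressed library lay below every control library, although the lowest control (1.53) and the highest stressed library (1.43) were close. The log2 fold change was -0.77 ± 0.19 (SE), with an unadjusted p of 0.000186 and an edgeR adjusted p of 0.9997. It was -0.59 without control mouse 2, and -0.70 within cohort 1 and -0.74 within cohort 2. Cohort 2 holds 1 stressed XX mouse (43), so here and below each value within cohort 2 rests on that mouse.

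Arl4d (chr11:101665541-101667832, plus strand) encodes a small GTPase of the ADP-ribosylation factor family. It stood at 11.1, 9.90, 8.25, 9.81 and 11.4 CPM in control mice 2, 10, 29, 35 and 50, and at 7.43, 7.05, 9.01, 7.46, 7.16 and 7.50 CPM in stressed mice 17, 20, 43, 9, 18 and 25. All but stressed mouse 43 lay below the lowest control. The log2 fold change was -0.42 ± 0.10 (SE), -0.43 within cohort 1 and -0.24 within cohort 2.

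Among the other 6 genes with the smallest p on the lower side, Rilpl1, a regulator of ciliary and lysosomal traffic, stood at 67.27 ± 4.995 CPM in controls and 58.1 ± 4.64 CPM in stress (SD, n = 5 and 6). Its log2 fold change was -0.21, and -0.29 within cohort 1 but -0.02 within cohort 2, and the gene overlaps Gm43034 on the other strand, so its level is uncertain. Kcnk1, a potassium leak channel, stood at 69.8 ± 6.54 CPM and 61.1 ± 4.37 CPM. Tmem151b, a membrane protein that overlaps Tcte1, stood at 152 ± 7.12 and 130 ± 6.81 CPM with no overlap between the groups; its log2 fold change was -0.19, and -0.09 within cohort 2. Klhl32, a member of the kelch-like family, stood at 22.5 ± 1.75 and 19.1 ± 1.67 CPM, also without overlap. Tmem39a and Ppwd1, a peptidyl-prolyl isomerase, had log2 fold changes of -0.26 and -0.22. Ppwd1 overlaps Cenpk.

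On the higher side the 8 genes with the smallest p under the same limits were Rbm45, Sil1, Ndufa4l2, Zfp949, Tmco5, Pcdha11, Mum1l1 and B3gntl1. Of these, B3gntl1 overlaps Tbcd on the other strand and Pcdha11 overlaps Gm10544 and Gm10545, so their levels are uncertain. Rbm45, an RNA-binding protein, stood at 20.7 ± 0.836 CPM in controls and 22.4 ± 0.845 CPM in stress, a log2 fold change of 0.16 ± 0.05 (SE). Sil1, a nucleotide exchange factor for the chaperone BiP, stood at 12.9 ± 0.728 and 14.7 ± 0.781 CPM. Ndufa4l2, a mitochondrial subunit homologue induced under low oxygen, was 1.27, 0.991, 1.30, 1.17 and 1.18 CPM in control mice 2, 10, 29, 35 and 50. It was 1.52, 1.53, 1.76, 1.51, 1.73 and 1.57 CPM in stressed mice 17, 20, 43, 9, 18 and 25. The groups did not overlap, and the log2 fold change of 0.49 ± 0.15 (SE) was the highest of the 8, although the gene overlaps Shmt2 on the other strand. Over the 16 genes of both directions the groups did not overlap for 7, of which 4 were higher and 3 lower. These genes were picked for their p, and nothing is read from that count. Over all genes tested the stressed libraries lay wholly above the controls for 59 genes (0.306%) and wholly below for 58 (0.301%).

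The genes that corticosterone induces stood near the control level. None of the 26 listed glucocorticoid-induced genes passed the test or had an unadjusted p below 0.05, 18 of them lay below 0, and their median log2 fold change was -0.03 beside -0.0003 over all genes tested. Over the alternatives that median ran from -0.05 to 0.01, the latter within cohort 1. Fkbp5, a co-chaperone that dampens the glucocorticoid receptor, stood at 18.5 ± 1.99 CPM in controls and 19.5 ± 1.47 CPM in stress, with a log2 fold change of 0.03 and a 95% interval from -0.14 to 0.20. Sgk1, a kinase induced by corticosteroids, had a log2 fold change of -0.003 (95% interval -0.23 to 0.22). Tsc22d3, which encodes the glucocorticoid-induced leucine zipper, had -0.08 (-0.28 to 0.11), and Per1, a clock gene with a glucocorticoid response element, had 0.10 (-0.09 to 0.30). Per1 is also counted in the lists of clock genes and of immediate early genes. All 4 intervals exclude a 1.5-fold difference.

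The receptors and peptides of the stress axis lay close to 0 as well. Of 18 measured members 12 lay below 0, none had an unadjusted p below 0.05, and the median was -0.02. Nr3c1 stood at 124 ± 8.89 CPM in controls and 116 ± 4.81 CPM in stress (log2 fold change -0.06, 95% interval -0.18 to 0.05). Nr3c2 had -0.01 (-0.12 to 0.10). Crh, corticotropin-releasing hormone, was measured at 2.50 ± 0.323 CPM in controls and 2.225 ± 0.397 CPM in stress (-0.14, -0.44 to 0.16), and its receptor Crhr1 had -0.01 (-0.14 to 0.12).

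The immediate early genes stood lower in stressed XX mice, without passing the test. Of 30 members 24 had a log2 fold change below 0, where 50.2% of all genes tested lay below 0, and their median was -0.12. None was called, and 5 had an unadjusted p below 0.05, all lower: Fos, Egr1, Npas4, Btg2 and Homer1. Apart from Fos, which heads its list, these genes were chosen after their values were seen. The share of the list at that p is to be read against the 3.02% of all genes. One-sided shares also occurred in other lists. Below 0 lay 16 of 18 voltage-gated potassium channels (median -0.06) and 12 of 15 neurotrophins and receptors (-0.03). Above 0 lay 21 of 24 cytosolic ribosomal protein genes (0.03). Over the 22 alternatives the number below 0 ran from 22 to 26 for the immediate early genes and from 13 to 17 for the potassium channels. It ran from 8 to 12 for the neurotrophins and receptors and from 2 to 17 for the ribosomal protein genes.

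Fos (chr12:85473890-85477273, plus strand) encodes a subunit of the AP-1 transcription factor and is a widely used marker of recent neuronal firing. Its level was 18.9, 12.6, 11.9, 14.5 and 26.03 CPM in control mice 2, 10, 29, 35 and 50. It was 10.2, 3.57, 12.9, 9.23, 8.92 and 16.7 CPM in stressed mice 17, 20, 43, 9, 18 and 25. Control mouse 50 was the highest and stressed mouse 20 by far the lowest, and the groups overlapped through stressed mice 43 and 25. The log2 fold change was -0.77 ± 0.26 (SE), with an unadjusted p of 0.00550 and an edgeR adjusted p of 0.9997. It was -1.08 within cohort 1 and -0.66 within cohort 2. Without stressed mouse 20 it was -0.57.

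Egr1, a zinc finger transcription factor of synaptic plasticity, stood at 248, 193, 188, 257 and 254 CPM in control mice 2, 10, 29, 35 and 50, and at 139, 108, 193, 153, 166 and 220 CPM in stressed mice 17, 20, 43, 9, 18 and 25. Mice 43 and 25 again reached the control range. The log2 fold change was -0.43 ± 0.15 (SE), with an unadjusted p of 0.00551. It was -0.77 within cohort 1 and -0.41 within cohort 2.

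Npas4 (chr19:4984355-4990316, minus strand), a transcription factor induced by calcium entry into neurons, stood at 31.9, 26.3, 28.1, 10.2 and 44.6 CPM in control mice 2, 10, 29, 35 and 50. It stood at 19.6, 8.71, 16.6, 16.8, 10.6 and 27.03 CPM in stressed mice 17, 20, 43, 9, 18 and 25. Control mouse 35, which was among the high libraries for Egr1, was the lowest control here. The groups overlapped, since stressed mouse 25 also lay above control mouse 10. The log2 fold change was -0.88 ± 0.35 (SE), with an unadjusted p of 0.0156. Without control mouse 50 it was -0.59, with an unadjusted p of 0.107.

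Arc, which encodes a capsid-like protein at synapses, stood at 116 ± 35.4 CPM in controls and 81.2 ± 25.8 CPM in stress (log2 fold change -0.51 ± 0.27 SE, unadjusted p = 0.0641, edgeR adjusted p = 0.9997). Within cohorts 1 and 2 the Arc value was -0.83 and -0.21. Btg2, an antiproliferative gene, had -0.53 ± 0.25 (SE), and -0.32 (unadjusted p = 0.223) without control mouse 50. Homer1, a scaffold of metabotropic glutamate receptors whose short form is activity-induced, had -0.23 ± 0.11 (SE), and -0.15 (unadjusted p = 0.199) without control mouse 35. Not all members lay low. Jun, which overlaps its antisense partner Junos, had 0.12 ± 0.13 (SE), Nr4a3 had 0.02, Bdnf had -0.03 and Fosl2 had -0.01. Per kilobase of exon, Egr1 (50.9 RPKM in controls) and Arc (37.9 RPKM) stood above Homer1 (19.1 RPKM), Fos (7.15 RPKM) and Npas4 (6.82 RPKM).

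**Figure D2:**
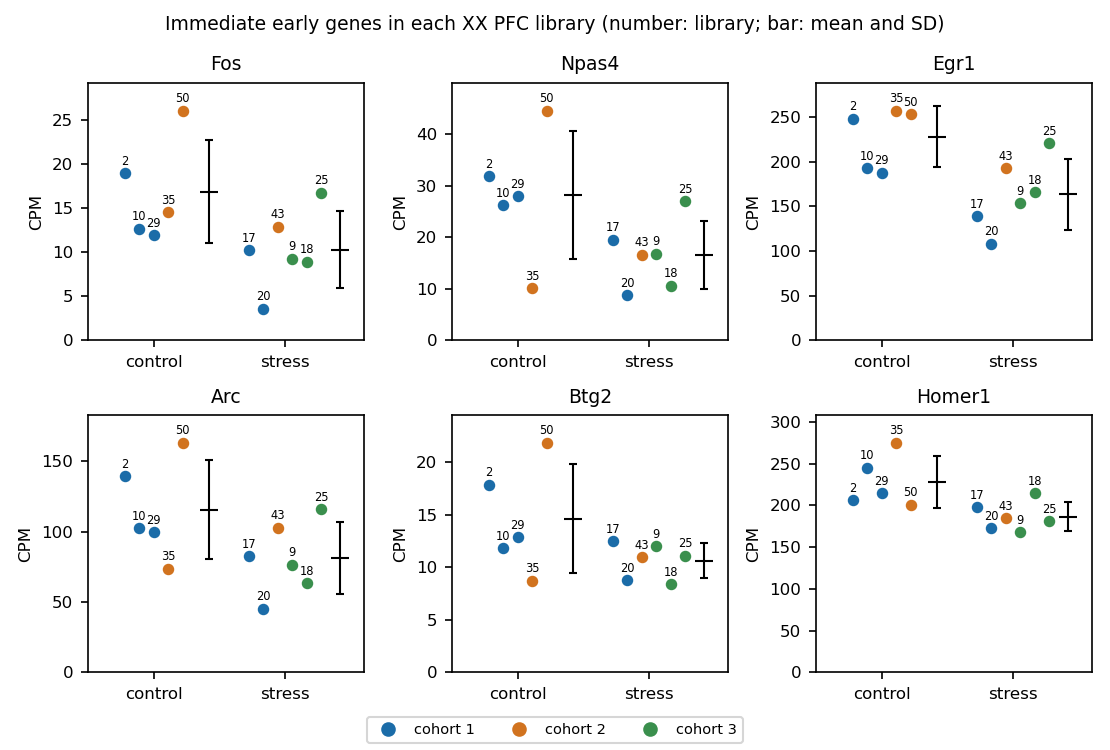
Levels of 6 immediate early genes in CPM (vertical axis, from 0) in each XX PFC library, control on the left and stress on the right of each panel. Dots are libraries with the mouse number, coloured by cohort, and bars are the mean and SD of 5 controls and 6 stressed mice. Stressed mouse 20 is the lowest library for Fos, Npas4, Egr1 and Arc, and control mouse 50 the highest for Fos, Npas4, Arc and Btg2.

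As a score, the mean of log2(CPM + 0.5) over the 30 genes was 4.49 ± 0.15 in controls and 4.29 ± 0.16 in stress (SD, n = 5 and 6). Control mouse 50 was highest (4.74) and stressed mouse 20 lowest (4.03). The number of the 30 genes with an unadjusted p below 0.05 was 2 without stressed mouse 20 and 3 without control mouse 50. It was 3 with limma-voom, 7 within cohort 1 and 1 within cohort 2. The median stayed below 0 in all 22 alternatives (-0.20 to -0.09), and none of them called a member.

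To show the kind of sequence that couples these genes to firing, the promoters of Fos and Btg2 are given. They are the 250 bases before the RefSeq start on GRCm38.p6, on the strand of the gene (Fos chr12:85473640-85473889, plus; Btg2 chr1:134079156-134079405, minus). Capitals mark the core of the cAMP response element, TGACG or its reverse complement CGTCA, which is bound by the factor CREB; where the pair overlap they form the full palindrome.
Fos: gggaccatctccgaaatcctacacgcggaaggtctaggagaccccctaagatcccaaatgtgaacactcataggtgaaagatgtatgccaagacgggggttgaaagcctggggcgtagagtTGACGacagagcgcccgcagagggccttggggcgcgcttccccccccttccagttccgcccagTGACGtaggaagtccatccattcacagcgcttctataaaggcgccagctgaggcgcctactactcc
Btg2: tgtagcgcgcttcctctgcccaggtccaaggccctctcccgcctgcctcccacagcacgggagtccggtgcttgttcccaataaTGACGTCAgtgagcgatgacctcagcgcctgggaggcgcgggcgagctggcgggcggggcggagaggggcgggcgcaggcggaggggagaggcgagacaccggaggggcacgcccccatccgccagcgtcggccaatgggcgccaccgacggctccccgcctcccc
The Fos window held the core at 2 places. In the Btg2 window the cores overlap in 1 full TGACGTCA. On either strand, the core was found in the windows of 14 of the 24 immediate early genes that have an entry, and in 17.8% of the 32850 windows of the same length. The palindrome was found in 2 of the 24 and in 1.55% of all windows. Egr1, Egr3, Arc, Ier2, Sik1 and Trib1 have no entry, so these shares do not cover them. Some windows do not sit at the GENCODE start of the gene, such as those of Npas4 (345 bases away) and Homer1 (4122). These are matches of letters and not measured binding.

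In the PFC of the other genotypes (XXSry, 6 control and 6 stressed mice; XY-, 7 and 6; XY-Sry, 6 and 6) the immediate early genes were not on the low side in each. The number of the 30 below 0 was 8 in XXSry, 22 in XY- and 4 in XY-Sry mice, with medians of 0.05, -0.04 and 0.10. The test of the difference called no gene. Of 19292 genes, 0 (0%) were called for XX minus XXSry, with 4.75% at an unadjusted p below 0.05. For XX minus XY- 0 were called, with 5.22% at that p, and for XX minus XY-Sry 0 were called, with 5.56%. The lowest adjusted p-values of these edgeR contrasts were 0.669, 0.926 and 0.283. Among the 30 immediate early genes, 3, 1 and 9 had an unadjusted p below 0.05 in the 3 contrasts. All 3 contrasts share the XX libraries. For Egr1 the stress value in XY-Sry mice was 0.30 ± 0.14 (SE), and the difference of XX from it was -0.73 (95% interval -1.13 to -0.33), with an unadjusted p of 0.000615 and an edgeR adjusted p of 0.704. For Fos the difference from XY-Sry was -1.16 (95% interval -1.87 to -0.44), with an adjusted p of 0.749. Within the other genotypes stress called 0 genes each with edgeR, and 5.8% (XXSry), 9.13% (XY-) and 6.3% (XY-Sry) of the genes had an unadjusted p below 0.05. The lowest edgeR adjusted p was 0.658 in XXSry, 0.0581 in XY- and 0.387 in XY-Sry mice.

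**Figure D3:**
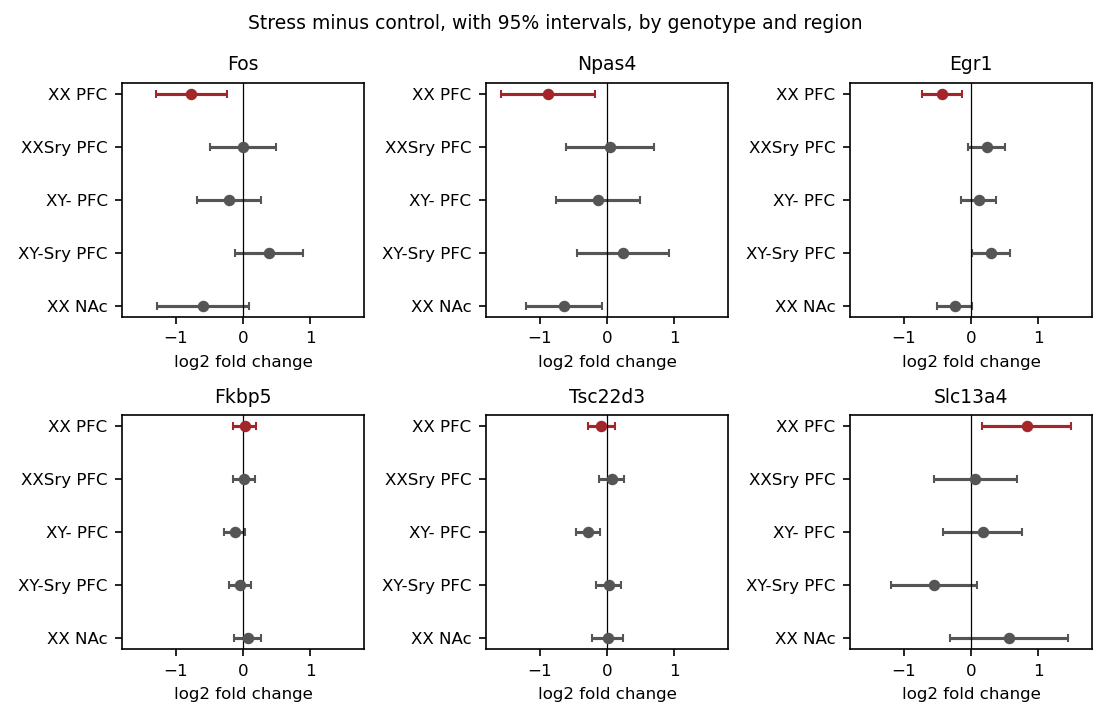
Log2 fold change of stress against control (horizontal axis) with 95% intervals for 6 genes in XX PFC (red), in the PFC of the other 3 genotypes and in XX NAc (grey). In XX PFC the intervals of Fos, Npas4 and Egr1 (below 0) and of Slc13a4 (above 0) exclude 0. So do those of Egr1 in XY-Sry (above 0), Npas4 in XX NAc and Tsc22d3 in XY- (both below 0). Fkbp5 lies between -0.13 and 0.07 in every row, and no adjusted p was below 0.05 in any row.

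The NAc of the same XX mice gave values on the same side. There 25 of the 30 genes lay below 0, with a median of -0.16 and 5 at an unadjusted p below 0.05, and 0 genes of 19684 were called in the NAc of XX mice (3.84% at an unadjusted p below 0.05). Fos stood at 8.15 ± 3.71 CPM in NAc controls and 5.79 ± 2.23 CPM in stress. As each animal gave both punches, the regions are not independent. The test of PFC minus NAc, with the animal as a block, called 0 of 19918 genes with edgeR (lowest adjusted p 0.989), with 3.56% at an unadjusted p below 0.05 and 0 of the 30 immediate early genes among them.

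In each of these contrasts the 3 genes of lowest p had the following values. Against XXSry they were Pla2g2d, a secreted phospholipase at a mean of 0.495 CPM (difference 1.88), Six4 (-1.04) and Plcl2, a phospholipase C-like protein (-0.26). For Six4 the XXSry stress value was 0.27 ± 0.18 (SE). Against XY- they were B3gntl1, a glycosyltransferase whose gene overlaps Tbcd (0.40), Elovl6, a fatty acid elongase (-0.30) and the unnamed Gm37669 (1.44). Against XY-Sry they were Pkd2l1, an ion channel of cerebrospinal fluid-contacting neurons (-3.37, at a mean of 0.106 CPM), Nyap2, a neuronal phosphoprotein (0.34), and Arl4d (-0.60). Between PFC and NAc they were Gm7327 (-1.92), Thbs1, a matrix protein of astrocytes and platelets (1.54), and Gm28229 (-1.04). For all 12 the XX value and the other value lay on opposite sides of 0, which follows in part from picking the smallest p of a difference.

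Markers of cells at the brain surface stood higher in the stressed libraries, again without passing the test. All 15 listed meningeal and fibroblast markers had a log2 fold change above 0, with a median of 0.39 beside -0.0003 over all genes, and 2 had an unadjusted p below 0.05. Their summed level was 286 to 432 CPM in controls (median 355) and 375 to 723 CPM in stress (median 444). None of the defining markers was at 0: Col1a1 stood at 4.52 ± 1.00 CPM and Dcn at 7.13 ± 2.02 CPM in controls. The part of these cells in any other value was not tested.

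Slc13a4, a sulfate transporter of the leptomeninges (chosen after its values were seen), stood at 9.21, 5.95, 7.29, 6.29 and 6.12 CPM in control mice 2, 10, 29, 35 and 50. It stood at 16.7, 10.8, 11.7, 8.95, 7.05 and 12.4 CPM in stressed mice 17, 20, 43, 9, 18 and 25. Stressed mouse 17 was the highest, and mice 9 and 18 lay within the control range. The log2 fold change was 0.83 ± 0.33 (SE). Col1a2, a chain of type I collagen, stood at 13.9 ± 1.10 and 18.1 ± 3.57 CPM with a log2 fold change of 0.45 ± 0.19 (SE). Ptgds, prostaglandin D synthase of the arachnoid (also chosen after its values were seen), ran from 187 to 280 CPM in controls and from 260 to 516 CPM in stress (0.62 ± 0.31 SE).

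Without stressed mouse 17 the median of the 15 genes was 0.33, and without control mouse 10 it was 0.29, with 1 gene at an unadjusted p below 0.05 each. In a fit on the XX libraries alone with cohort it was 0.48, with 9 genes at that p and 0 called. Within cohort 1 it was 0.58 with 0 genes at that p, and within cohort 2 it was 0.33, with 3 of the 15 below 0. All 15 genes lay below 0 in the PFC of XY-Sry mice, where the median was -0.45. The median difference from XY-Sry was 0.81, 12 of the 15 had an unadjusted p below 0.05 in that contrast, and the lowest edgeR adjusted p among them was 0.805. In XXSry and XY- mice the medians were -0.02 and 0.00. In the NAc of the XX mice 9 of the 15 lay below 0, with a median of -0.03. The median difference, PFC minus NAc, was 0.42. In that contrast 2 of the 15 had an unadjusted p below 0.05, and the lowest edgeR adjusted p among them was 0.989.

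**Figure D4:**
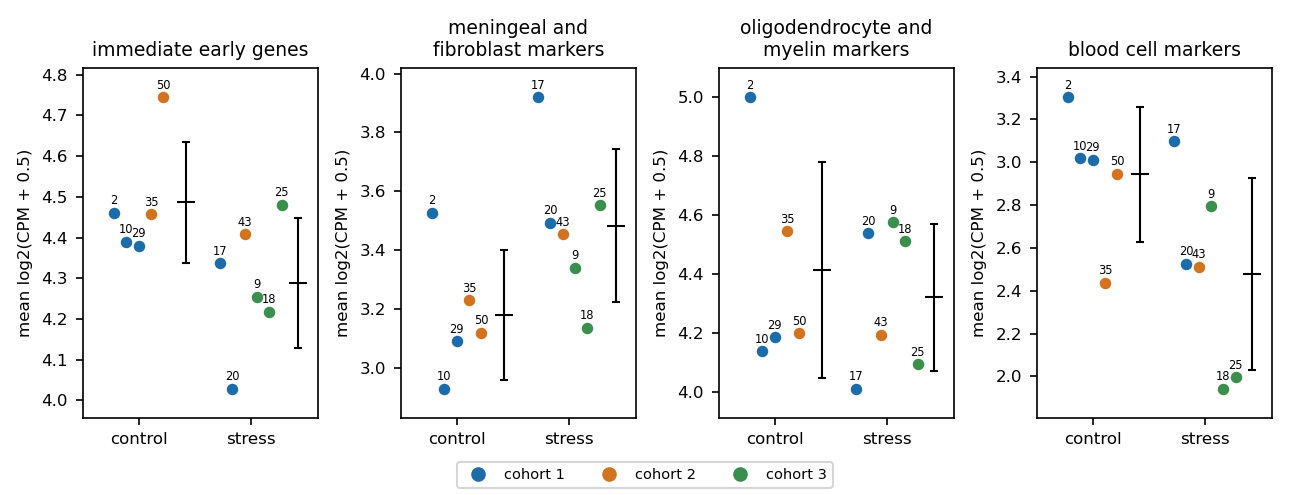
Mean log2(CPM + 0.5) of 4 gene lists (vertical axes, not from 0) in each XX PFC library, control on the left and stress on the right of each panel. Dots are libraries with the mouse number, coloured by cohort, and bars are the mean and SD (n = 5 and 6); stressed mouse 17 is highest for the meningeal list and control mouse 2 for the myelin list.

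Myelin genes stood somewhat lower, and the direction changed when 1 library was left out. Of 15 oligodendrocyte and myelin markers 12 lay below 0 with a median of -0.10, and none had an unadjusted p below 0.05. Mbp, Mog and Mag lay between -0.21 and -0.06. The summed level was 944 to 1738 CPM in controls and 814 to 1272 CPM in stress, and the 1738 CPM belonged to control mouse 2. Without that mouse the median was 0.04 and 1 of the 15 genes lay below 0, and without stressed mouse 17 it was -0.03 with 9 below 0. Within cohort 2, which does not hold control mouse 2 and has 1 stressed XX mouse, it was -0.20 with 14 below 0. Within cohort 1 it was -0.23 with 15 below 0.

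Most other cell types stood close to 0. The medians were -0.02 for excitatory neuron, -0.03 for interneuron and -0.03 for striatal neuron markers. Excitatory markers Slc17a7, Neurod6 and Tbr1 lay between -0.02 and 0.01. The inhibitory markers Gad1, Gad2, Slc32a1 and Pvalb lay between -0.19 and -0.02. Astrocyte markers had a median of -0.04 with 13 of 15 below 0, and of -0.01 with 9 below 0 without control mouse 2. Microglia markers had a median of -0.005, with Cx3cr1, P2ry12, Tmem119 and C1qa between -0.06 and 0.00. Oligodendrocyte precursor and endothelial markers had medians of -0.04 each. Pericyte and smooth muscle markers had 11 of 12 members above 0 and a median of 0.09. Haemoglobin and other blood cell markers had a median of -0.27, which was -0.61 without stressed mouse 17, -0.15 without stressed mouse 20 and -0.53 with limma-voom. Hbb-bt stood at 11.02 ± 3.95 CPM in controls and 5.83 ± 2.86 CPM in stress (log2 fold change -0.81 ± 0.39 SE). The 10 measured markers of ependyma and choroid plexus stood higher, with a median of 0.24, 7 above 0 and 3 below. Over the alternatives that median ran from 0.05 to 0.38. Their summed level was low, at 8.7 to 9.4 CPM in controls and 9.8 to 13.1 CPM in stress. Ttr, a transthyretin made by the choroid plexus, was 0.0238 to 0.478 CPM in controls and reached 4.15 CPM in stressed mouse 9 and 2.14 CPM in mouse 18, with 0.824 CPM or less in the other stressed mice. Its log2 fold change of 2.46 was 1.06 within cohort 1 and -0.03 within cohort 2. A further 2 genes of the ependyma and choroid plexus list had an unadjusted p below 0.05, in opposite directions: Kl, which encodes klotho (0.53 ± 0.19 SE), and Prlr, the prolactin receptor (-0.80 ± 0.30 SE). Within cohorts 1 and 2 Kl had 0.81 and 0.85, and Prlr -0.26 and -1.29.

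Genes of transmission and hormone response showed small values. The serotonin system had a median of 0.04 over 14 genes, dopamine and noradrenaline genes 0.01 over 15 and opioid genes 0.01 over 8. Glutamate receptors had a median of -0.01 over 22 genes, and Gria1 to Gria4, the AMPA receptor subunits, lay between -0.04 and 0.07. Grin2a, an NMDA receptor subunit, was the 1 member of that list with an unadjusted p below 0.05 (257 ± 9.37 CPM in controls and 234 ± 11.5 CPM in stress, SD, n = 5 and 6; log2 fold change -0.13 ± 0.05 SE). GABA-A receptor subunits had -0.01 over 14 genes. Of the gonadal steroid receptors, Esr1 had 0.13 (95% interval -0.27 to 0.53) and Pgr -0.04 (-0.19 to 0.11). The neurotrophins Bdnf, Ntf3 and Ntf5 lay between -0.24 and 0.26, and the 4 at the head of the clock gene list, Arntl, Clock, Npas2 and Per1, between -0.05 and 0.10.

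Interferon-response genes had a median of -0.01 over 24 members, 13 of them below 0. In the PFC of XY- mice all 24 lay above 0 with a median of 0.48 and 18 at an unadjusted p below 0.05. The median difference, XX minus XY-, was -0.56, with 5 of 24 at an unadjusted p below 0.05 and no adjusted p under 0.926 with edgeR. Rsad2, an antiviral enzyme, was the 1 member with an unadjusted p below 0.05 in XX mice (2.48 ± 0.659 CPM in controls, 1.565 ± 0.208 CPM in stress). The glucocorticoid-induced genes of XY- mice had a median of -0.22 with 14 of 26 at an unadjusted p below 0.05, and 4 of the 26 had such a p in the difference from XX.

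**Figure D5:**
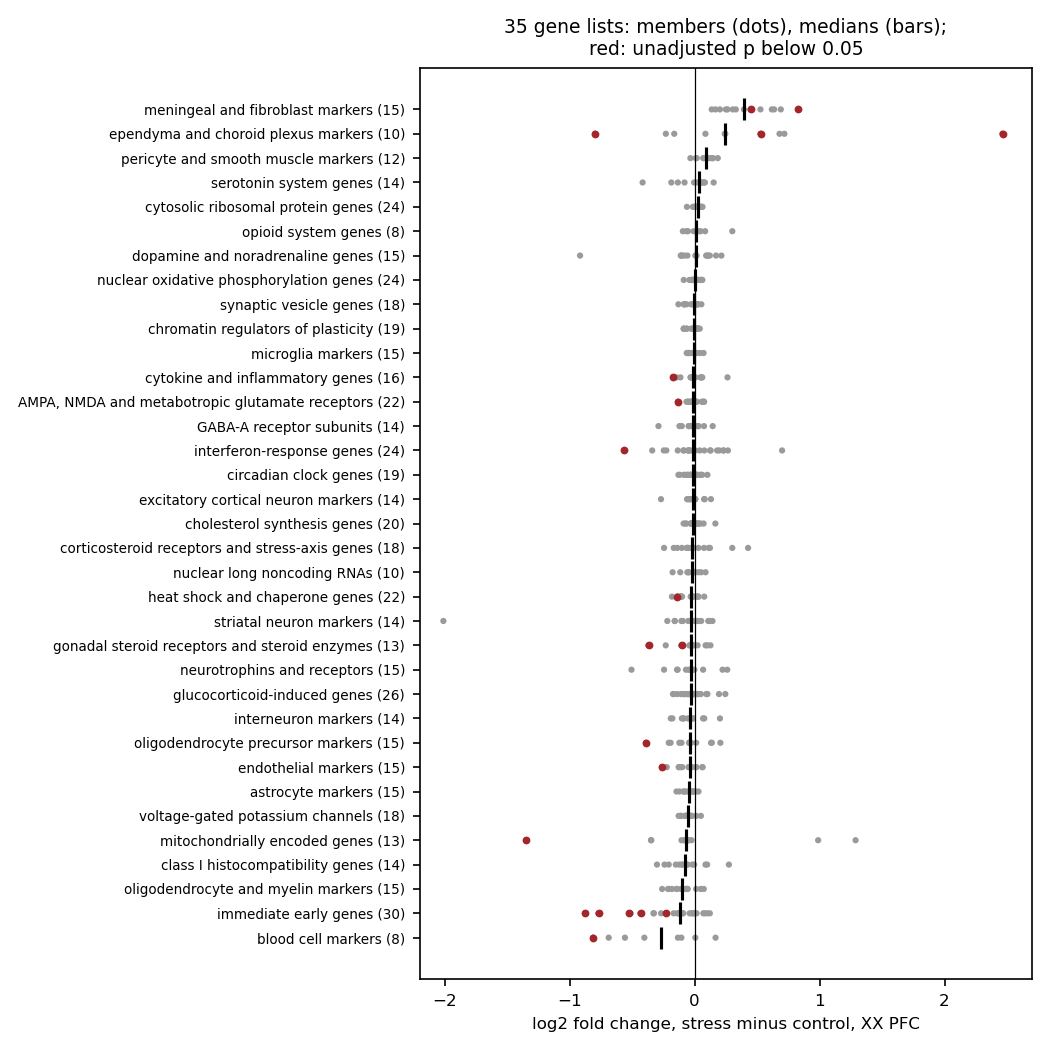
Log2 fold change of stress against control in XX PFC (horizontal axis) for the members of 35 gene lists (rows, with the number tested). Dots are genes, red where the unadjusted p is below 0.05, and bars are medians; 30 of the 35 medians lie within 0.1 of 0, with the meningeal list highest and the blood list lowest.

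Over all lists together, 20 of the 561 genes had an unadjusted p below 0.05, which is 3.57% beside 3.02% of all genes tested. Of these 4 were higher and 16 lower in stress, and 5 of the 16 were the immediate early genes above. The others included Emcn, an endothelial surface sialomucin (6.26 ± 0.655 CPM in controls, 5.09 ± 0.452 CPM in stress), and Cxcl12, a chemokine of vessels and meninges (81.5 ± 4.14 and 69.3 ± 3.82 CPM), whose groups did not overlap.

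Among genes of at least 1 CPM, 6 had a log2 fold change beyond 1 in either direction (178 did under 1 CPM), namely Gm10925, Gm47283, mt-Co3, Gm28438, Xlr3b and mt-Atp6. Gm10925 (log2 fold change -2.37) stood at 174 CPM in control mouse 35 and at 3.56 to 6.04 CPM in the other 10 libraries. mt-Co3, a mitochondrially encoded subunit of cytochrome oxidase (-1.35), stood at 35.96 CPM in control mouse 29 and at 2.35 to 7.74 CPM in the other libraries. mt-Atp6 (1.29), which encodes a subunit of ATP synthase, stood at 41.2 CPM in stressed mouse 20 and at 1.75 to 4.35 CPM elsewhere. Gm47283 (-1.42) is annotated to the Y chromosome, which XX mice lack, and stood at 0.370 to 7.28 CPM; it is not one of the 4 Y-linked genes summed above. Gm28438 was between 19.1 and 29.5 CPM in 6 libraries and between 0.218 and 0.396 CPM in the other 5, of both groups. Reads of these 6 genes can be shared with near-identical copies, so their levels are uncertain.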

How the data were processed

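Tissue punches of PFC and NAc were sequenced as poly(A) libraries (TruSeq mRNA, paired reads), per the labels' protocols. The submitters' processing notes name FastQC 0.11.9, Trimmomatic 0.38, HISAT2 2.2.0, edgeR, DESeq2 and the build GRCm38 (mm10), without their roles. The authors deposited raw counts per gene in 1 table for each region, with 19918 genes. The sources used here do not name the counting tool, strand setting or annotation (not given), so a gene cannot be told apart from one that overlaps it on the other strand. Positions and lengths come from GENCODE M21, promoters from RefSeq.

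Low genes were filtered with filterByExpr, counts were scaled by TMM, and stress was tested with edgeR 4.0.16 (R 4.3.3), robust quasi-likelihood, with 8 groups and cohort as terms over the 48 PFC libraries. Adjusted p-values are Benjamini-Hochberg over all genes tested, with 0.05 as the threshold. The region contrast added the animal as a block, since the titles give both punches of a mouse 1 number. DESeq2 1.42.0, limma 3.58.1, other filters, scalings and sample sets were alternatives. CPM and RPKM were computed from the counts. Intervals are 95%. Libraries of 1 group differed beyond sampling noise (lowest chi-square per degree of freedom 8.42 over 25 pairs).

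The gene lists and the comparison were chosen with earlier results of these data known. Named are the 8 genes with the smallest p in each direction (mean of at least 1 CPM, no Gm or Rik names), members among the first 4 of each list (some are not reported here), and 3 genes per difference contrast. Egr1, Npas4, Arc, Btg2, Homer1, Slc13a4, Ptgds, Rsad2, Grin2a, Emcn, Cxcl12 and the genes beyond 2-fold were added after their values were seen.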

Additional observations from a re-analysis of the deposited data

Results flagged for a closer look

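Of 430 groups of library values examined, 24 (5.58%) had a highest or lowest library far from the others, where chance gives about 1 in 20. Control mouse 2 held 6 of them. It was the highest control for Pkd2l1 (0.278 CPM), mt-Nd3 (12.3 CPM), Olig1 (42.3 CPM) and H2-K1 (17.8 CPM), and the lowest for the serotonin receptors Htr1a (14.5 CPM) and Htr1b (12.4 CPM).

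Control mouse 10 was lowest for Col1a2 (11.9 CPM) and highest for Rbm45 (22.1 CPM) and Ntf5 (0.695 CPM). Control mouse 29 was lowest for Aqp4 (84.2 CPM) and Ndufa4 (89.5 CPM) and highest for mt-Co3 (35.96 CPM). Control mouse 35 was highest for Gad2 (211 CPM), and control mouse 50 for the immediate early gene score (4.75).

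Among stressed mice, mouse 17 was highest for Col3a1 (3.93 CPM) and Ifit1 (3.99 CPM). Mouse 18 was lowest for Ntf3 (0.674 CPM), Vtn (37.6 CPM) and the astrocyte score (6.76). Mouse 20 was highest for Crh (3.01 CPM) and for total counts (89.5 M). Mouse 25 was lowest for Six4 (0.784 CPM) and Pgr (46.2 CPM), and mouse 43 highest for Arl4d (9.01 CPM). No cause was tested.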

How the results depend on the processing

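No gene was called (0) in the stress comparison of XX PFC or in the 4 difference contrasts under any alternative that was run. The number of genes at an unadjusted p below 0.05 in XX PFC was 582 as reported, and 1024 without the cohort term, 1053 on the XX libraries alone without cohort and 1056 within cohort 1. It ran from 500 to 793 when 1 XX mouse was left out, where the lowest edgeR adjusted p was 0.504 to 1.0. For XX minus XY- it was 1007 as reported and 546 in cohorts 1 and 2 alone. For PFC minus NAc, 0 genes were called and 673 had an unadjusted p below 0.05 with no replicate block, beside 710 with the block. Leaving out each mouse was not run for this contrast, and its low-count filter removed no gene. No paired analysis was possible for the contrasts within the PFC because the stressed and control XX mice share no numbers. The cohort 3 mice are all stressed among XX, so their cohort effect is learned from other genotypes. The 16 named genes with the smallest p kept their sign in all 352 alternative values. Over all 179 named genes, 291 of 3921 alternative values had the other sign, and none was called. Intervals were widest for genes under 1 CPM.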
